A study of Mus musculus with 24 samples.

Results

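The genes described are 10 components of the Notch pathway, which were chosen by name and found by matching the gene identifiers of the count files to mouse GRCm38 symbols. All 10 were found among the 45513 genes of the files. On GRCm38, Notch1 lies on chromosome 2 (26457903 to 26516663), Notch2 on chromosome 3 (98013527 to 98150361), Hes1 on chromosome 16 (30064384 to 30067796), Hes6 on chromosome 1 (91411483 to 91414038), Lfng on chromosome 5 (140607320 to 140615545) and Mfng on chromosome 15 (78755882 to 78773475), and counts cover their exons. They comprise 3 receptors (Notch1, Notch2 and Notch3), 2 modulators of the receptors (Lfng and Mfng), 4 transcription factors of the Hes and Hey families (Hes1, Hes5, Hes6 and Hey1) and the feedback regulator Nrarp. RNA was counted in 24 libraries of EpCAM+tdTom+ live cells sorted from the small intestine (SI) and colon of mice with an inducible CreERT2 behind the Atoh1 coding sequence and a tdTom reporter at the Rosa26 locus (R26RtdTom). One line carried wild-type Atoh1 (WT), and the other a knockin in which the 9 serine or threonine residues that precede a proline were replaced by alanine (9S/T-A). Genotype and tissue thus gave 4 groups, and all animals received 3 mg of tamoxifen 24 hr before collection, and per the study's methods mice were 8 to 16 weeks old on a C57BL/6 background. Each group held 6 libraries, 3 from females and 3 from males, numbered 2 to 7 in the labels. Since Cre was driven from the Atoh1 locus, the reporter marks cells that had expressed Atoh1, and the gate was meant to leave out other cells, although RNA of other cell types was present as given below.

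Notch receptors are transmembrane proteins that are cleaved when a neighboring cell presents a Delta or Jagged ligand. The released intracellular domain enters the nucleus, binds the DNA-binding protein RBPJ and switches on genes of the Hes and Hey families, which encode transcriptional repressors. In intestinal crypts, cells in which Notch is active express Hes1 and take the absorptive fate, whereas cells that escape Notch express Atoh1, present ligands and take the secretory fate. The reporter used for sorting marks that second, ligand-presenting class.

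Total counts lay between 36.0 M and 65.8 M per library (M, mega). The epithelial markers Epcam and Cdh1 were at 770 or more and 529 or more counts per M (CPM) in every library, respectively, and the 6 stromal markers stayed under 1 CPM in every library. CPM values are scaled over all 24 libraries by the trimmed mean of M values (TMM). The summed level of 7 goblet cell markers lay between 312000 and 503000 CPM across SI libraries against 34500 to 79900 CPM across colon libraries, so that a few genes took a large share of SI counts. As a result the tissue difference of a gene depends on how libraries are scaled: with library totals in place of TMM, the median log2 fold change over all genes between colon and SI moved from 0.026 to 0.74 in WT and from 0.042 to 0.85 in 9S/T-A. Libraries numbered 7 stood apart in all 4 groups on the second principal component, which held 4.9% of the variance, at -39.5 to -27.8 against -7 to 16.6 for the others, and leaving them out changed no call of a member.

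Upstream sequence was at hand for 7 of the 10 genes (RefSeq, GRCm38.p6), and 3 stretches are shown because they hold the motifs of the pathway's own regulators. The motif GTGGGAA, a core of RBPJ sites, and the E-box CAGCTG, a site form for basic helix-loop-helix factors such as ATOH1, were searched on both strands over the 250 bases before each start. GTGGGAA was present in 5.42% and CAGCTG in 13% of 32851 such stretches of all genes. Capitals mark the matches, and those on the opposite strand appear as the reverse complement. The motifs did not overlap each other in these stretches.
Hes5 (chr4:154960673-154960922, plus strand): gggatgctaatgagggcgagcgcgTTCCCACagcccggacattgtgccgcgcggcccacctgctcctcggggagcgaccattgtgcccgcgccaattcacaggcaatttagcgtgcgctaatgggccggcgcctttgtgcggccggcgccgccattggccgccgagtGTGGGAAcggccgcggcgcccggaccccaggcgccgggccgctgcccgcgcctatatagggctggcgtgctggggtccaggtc
Lfng (chr5:140607091-140607319, plus strand): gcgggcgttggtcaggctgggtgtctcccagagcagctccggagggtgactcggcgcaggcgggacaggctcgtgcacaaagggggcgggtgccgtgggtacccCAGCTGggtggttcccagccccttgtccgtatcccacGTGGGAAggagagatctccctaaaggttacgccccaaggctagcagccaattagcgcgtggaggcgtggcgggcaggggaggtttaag
Hes6 (chr1:91414039-91414288, minus strand): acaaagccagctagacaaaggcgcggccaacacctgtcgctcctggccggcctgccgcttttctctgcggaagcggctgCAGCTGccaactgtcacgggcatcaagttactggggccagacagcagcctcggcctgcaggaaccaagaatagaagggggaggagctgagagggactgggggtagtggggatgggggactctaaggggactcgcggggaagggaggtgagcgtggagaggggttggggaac
Hes5 held GTGGGAA at 2 places, 226 bases before the start on the opposite strand and 83 bases before it on the gene's strand. Lfng held GTGGGAA 109 bases and CAGCTG 146 bases before the RefSeq start. Hes6 held CAGCTG 171 bases before its start and no GTGGGAA. A further RefSeq start of Hes6, inside the gene model of the count files, had CAGCTG 150 bases before it. Neither motif was found in the stretches of Notch1, Notch2, Notch3 and Nrarp. The RefSeq start of Notch1 (26503822) also lies inside its gene model, which begins at 26516663 on the minus strand, so that stretch is within the counted gene. A match describes the letters in this window only, and the 3 genes had very different levels in these cells, as described next.

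The 10 genes spanned a wide range of expression, with Hes6 at the top and Hey1 and Hes5 at the bottom. To compare genes, levels were divided by exonic length, giving CPM per kb, and are means ± SD over the 6 libraries of a group. Hes6, which encodes a Hes-family protein known to counter HES1 and to mark cells entering differentiation, was highest at 41.1 ± 3.16 CPM per kb in WT SI and 59.5 ± 3.67 CPM per kb in WT colon. These levels stood at the 92.5 and 94.7 percentile of the genes expressed in the data. Hes1, the main Notch-induced repressor of Atoh1, followed at 20.1 ± 2.30 CPM per kb in WT SI and 21.5 ± 1.75 CPM per kb in WT colon. Next came the glycosyltransferase gene Lfng, at 8.85 ± 0.687 and 11.2 ± 0.740 CPM per kb in the WT SI and WT colon groups, and Nrarp, at 5.43 ± 1.07 and 4.41 ± 0.524 CPM per kb. Among the 3 receptors of the set the order was Notch1, Notch2 and Notch3 in all 4 groups. They were at 1.45 ± 0.138, 0.755 ± 0.105 and 0.0461 ± 0.0139 CPM per kb in WT SI. Notch4, which was not among the 10 genes, was above Notch1 in colon, with means of 1.88 against 1.61 CPM per kb in WT. In 9S/T-A colon these means were 2.21 and 1.56 CPM per kb. In SI Notch4 had means of 0.699 (WT) and 0.736 (9S/T-A) CPM per kb. Of the 10 genes, the first 6 places (Hes6, Hes1, Lfng, Nrarp, Notch1, Notch2) were the same in all 4 groups. Neighbors among these 6 did not overlap between libraries in any group. Below Notch2, Mfng overlapped Notch2 in 9S/T-A SI, and the order of Notch3, Hes5 and Hey1 changed between groups, with ranges that overlapped except for Notch3 and Hey1 in both colon groups.

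**Figure D1:**
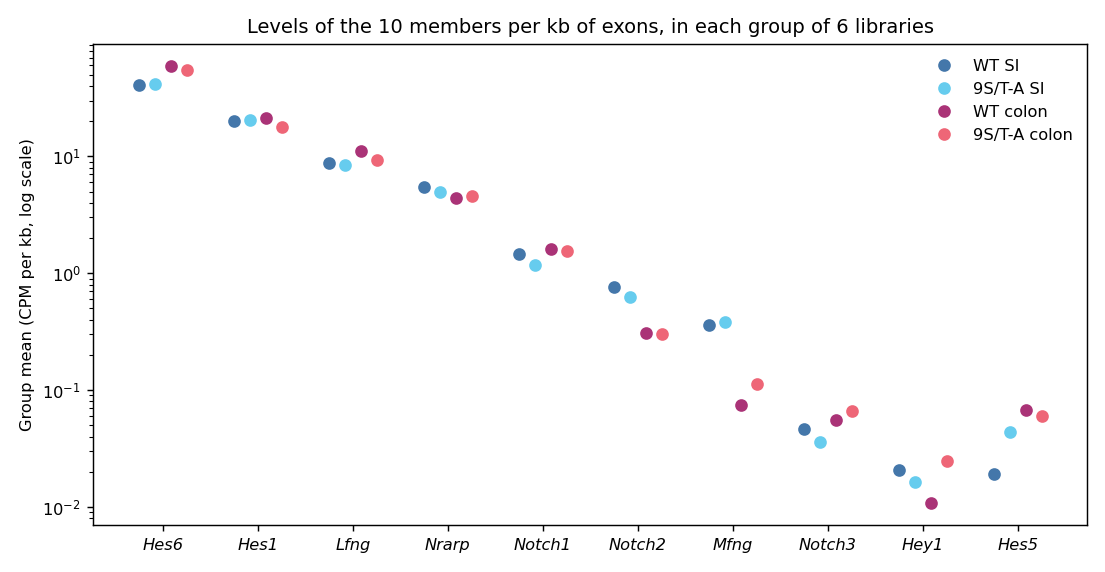
Group means of the 10 genes in CPM per kb of exons (vertical axis, logarithmic), ordered by WT SI, with 1 point for each of the 4 groups of 6 libraries. Hes6 and Hes1 lie above 10 CPM per kb in all 4 groups, and Notch3, Hey1 and Hes5 lie under 0.1.

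Of the ligands that activate the receptors, Dll1 and Dll4 were above every receptor in all 4 groups, at 33.1 and 31.8 CPM per kb in WT SI and 11.4 and 12.6 CPM per kb in WT colon. Jag1 was at 1.43 to 1.68 CPM per kb in the 4 groups, Jag2 at 0.399 to 0.881 CPM per kb and Dll3 at 0.142 to 1.91 CPM per kb.

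To ask whether the phosphomutant changed the pathway, 9S/T-A was compared with WT in each tissue. The quasi-likelihood test of edgeR, with genotype as the only term, called 1.94% of 16236 genes in SI and 0.318% of 16997 genes in colon. In neither tissue did any of the 8 members with enough counts to test pass its adjusted p of 0.05. In SI 0 of the 8 members, and in colon 2 of them (Hes1 and Lfng), had an unadjusted p under 0.05, and DESeq2 called 0 members in either tissue. Hes5 and Hey1 were left out of these fits by the filter on low counts.

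Notch1, a receptor that acts in crypt stem and progenitor cells, had the highest level of the 3 receptors among the members. It was at 18.1, 20.3 and 24.2 CPM (lowest, median and highest) in WT SI and 12.7, 15.3 and 25.3 CPM in 9S/T-A SI. The groups overlapped, with 1 9S/T-A library (number 2, at 25.3 CPM) above all WT libraries. The log2 fold change was -0.30 ± 0.144 (SE), with a 95% interval from -0.61 to 0.01 and adjusted p = 0.331 (edgeR). Without the 9S/T-A SI library numbered 2 the difference was -0.45 with adjusted p = 0.0282, and without the libraries numbered 2 in every group it was -0.46 with adjusted p = 0.0344. In colon Notch1 was at 19.7, 23.0 and 27.5 CPM in WT and at 15.3, 23.1 and 28.8 CPM in 9S/T-A, a difference of -0.04 ± 0.134 with an interval from -0.32 to 0.25.

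Notch2, the other receptor expressed in crypts, was at 6.32, 8.41 and 9.57 CPM in WT SI and 4.95, 6.61 and 8.44 CPM in 9S/T-A SI. These ranges overlapped, and the log2 fold change of -0.28 ± 0.137 did not pass the test (interval -0.57 to 0.01, adjusted p = 0.335, edgeR). In colon the difference was -0.02 ± 0.175, with an interval from -0.39 to 0.36. Notch3, best known from mural cells of vessels, had 6 to 73 counts per library, and its differences of -0.36 ± 0.314 (SI) and 0.27 ± 0.351 (colon) had intervals from -1.03 to 0.31 and from -0.49 to 1.02.

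Lfng showed the clearest separation by genotype, in colon. LFNG adds N-acetylglucosamine to fucose on the receptors and so tunes which ligands they respond to. Lfng was at 25.1, 28.3 and 30.6 CPM in WT colon and 19.9, 24 and 24.8 CPM in 9S/T-A colon, so every 9S/T-A library was below every WT library. Lfng was the 1 member of 8 whose genotype groups did not overlap in colon, against 0.906% of all genes tested, and in SI there were 0 members against 2.07% of all genes. The log2 fold change in colon was -0.25 ± 0.0684, a fold of 0.839, with an interval from -0.40 to -0.11, an unadjusted p of 0.00237 and an adjusted p of 0.19 (edgeR). With the replicate number as a block it was -0.26 ± 0.0567 and passed, with adjusted p = 0.0447 (edgeR). That block raised the calls over all genes in colon from 54 to 385. Same-numbered libraries of the 2 genotypes did not deviate together throughout. In SI Lfng was at 19.1, 22.3 and 24 CPM in WT and 18.7, 21.3 and 23.3 CPM in 9S/T-A, with overlap and a difference of -0.06 ± 0.0802. The other modulator, Mfng, was low in colon at 3 to 43 counts per library, and its difference there was 0.64 ± 0.413, with an interval from -0.25 to 1.52.

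Among the Hes genes, Hes1 was at 38.3, 43.9 and 49.2 CPM in WT colon and 28.4, 35.5 and 43.0 CPM in 9S/T-A colon. The 9S/T-A libraries reached lower but overlapped those of WT, and the log2 fold change of -0.26 ± 0.0947 did not pass (interval -0.46 to -0.05, unadjusted p = 0.0173, adjusted p = 0.406, edgeR). In SI, Hes1 was at 35.7, 41.4 and 48.3 CPM in WT and 38.3, 41.3 and 44.3 CPM in 9S/T-A. Its difference in SI was 0.01 ± 0.079, with an interval from -0.16 to 0.18. For Hes6 the interval in SI ran from -0.15 to 0.17, and that in colon from -0.24 to 0.06. For Nrarp, whose product acts on the Notch intracellular domain in a negative feedback loop, the intervals were -0.47 to 0.18 (SI) and -0.12 to 0.29 (colon).

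**Figure D2:**
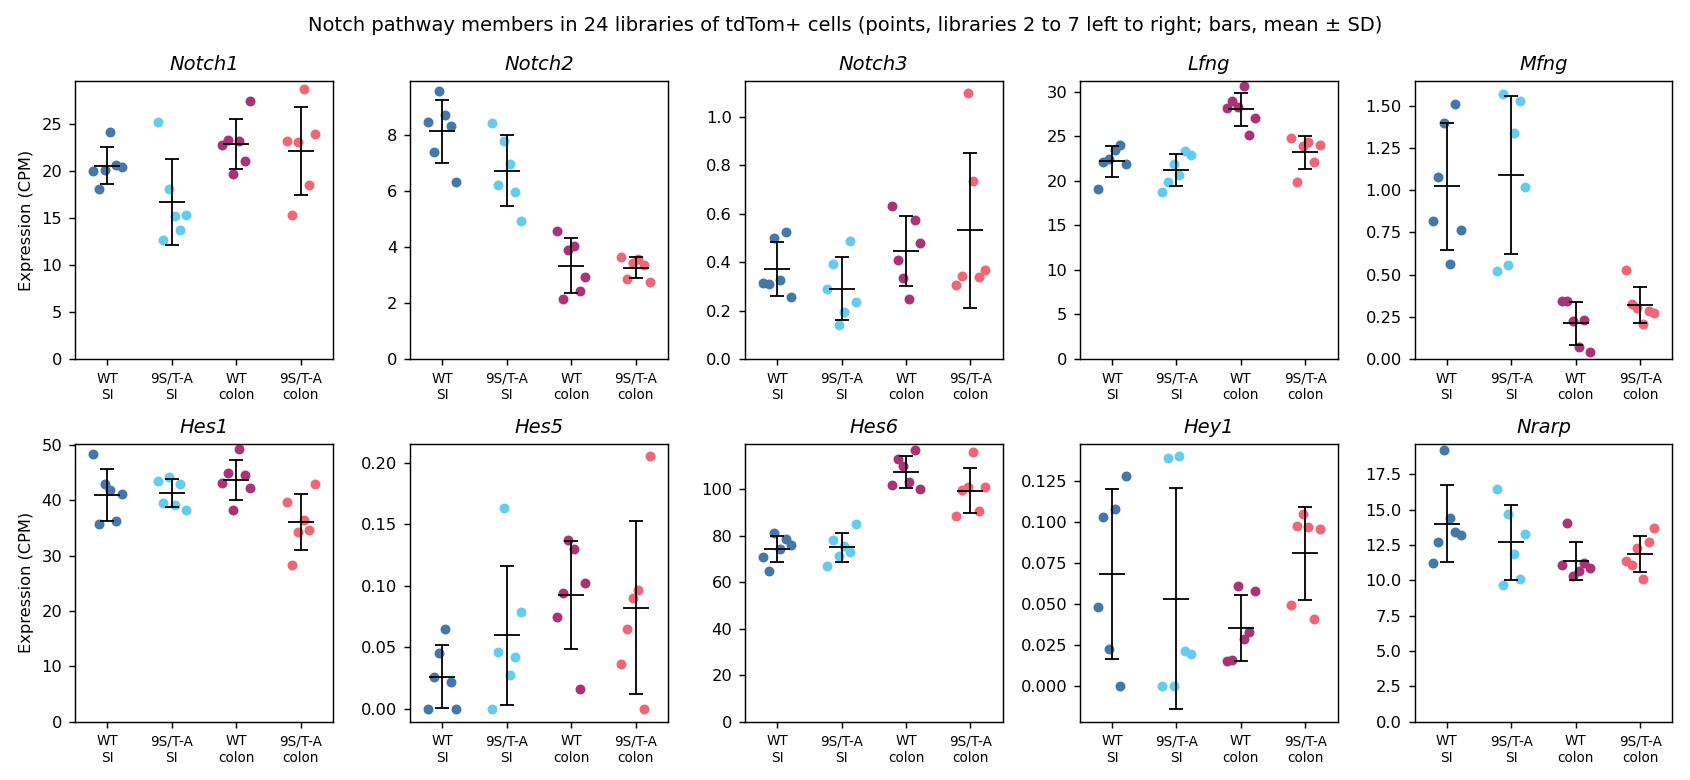
Expression of each of the 10 genes in CPM (vertical axes, linear, each on its own scale) for both genotypes in SI and then in colon, with 1 point per library and bars at the mean ± SD of 6 libraries. All Lfng points of 9S/T-A colon (19.9 to 24.8 CPM) lie below those of WT colon (25.1 to 30.6 CPM), and Notch2 and Mfng are lower in colon than in SI.

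**Figure D3:**
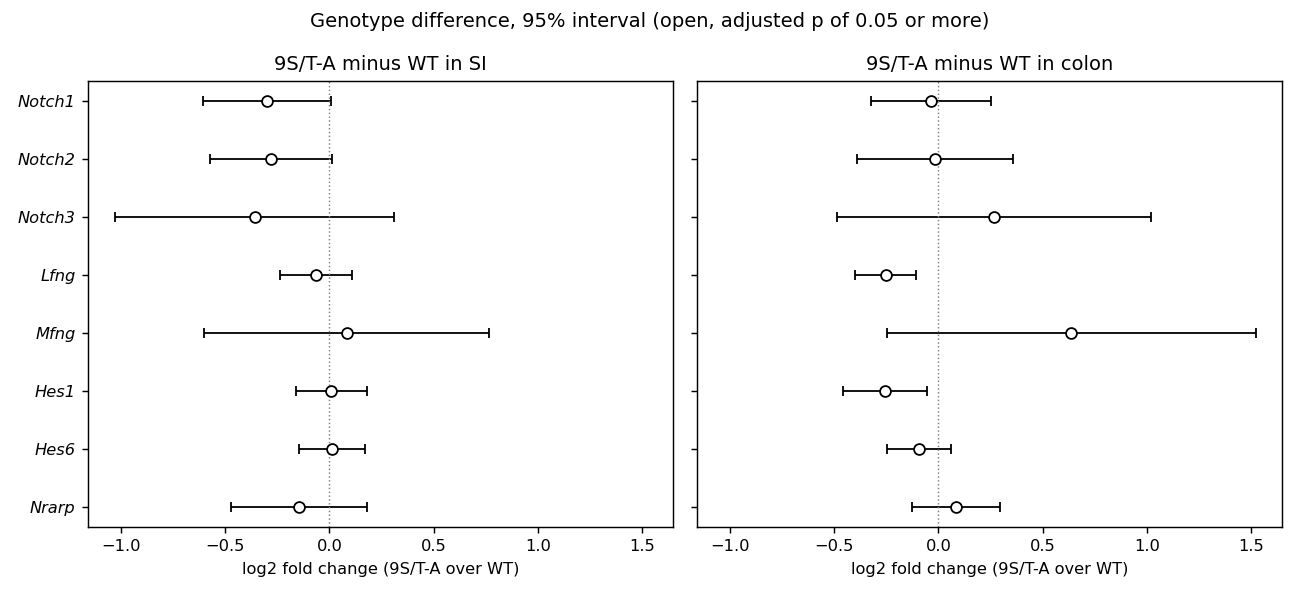
Log2 fold change of 9S/T-A over WT (horizontal axis) for the 8 tested members in SI and colon, with points at the estimate and bars for the 95% interval. All points are open, since no member passed an adjusted p of 0.05 with genotype as the only term. The intervals of Hes1 and Lfng in colon lie below 0.

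The pathway genes outside the members were examined in the same fits, in 5 lists of 55 genes. Of the 52 tested in SI, 2 rose in 9S/T-A and 0 fell, beside the 1.94% of all genes called in either direction, and both were ligands. An unadjusted p under 0.05 was found for 8, DESeq2 called 3, and with library totals 1 was called (Dll3). Dll3, a Delta family member that acts within the cell rather than on a neighbor, rose by 1.33 ± 0.183 on the log2 scale (adjusted p = 0.00132, edgeR), from 1.56, 1.87 and 3.31 CPM in WT to 4.22, 5.53 and 6.48 CPM in 9S/T-A without overlap. Jag2 rose by 0.71 ± 0.122 (adjusted p = 0.00637, edgeR), from 2.02, 2.15 and 2.43 CPM to 2.70, 3.71 and 3.95 CPM. In colon 1 of 50 tested genes was called (0.318% of all genes), again Dll3, which rose by 1.74 ± 0.267 (adjusted p = 0.00977, edgeR). Of the 11 genes of Notch4 and receptor processing and the 16 genes of the nuclear complex, including Rbpj and Maml1, 0 were called in either tissue.

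The larger differences lay between tissues. Between colon and SI edgeR called 63.6% of 16979 genes in WT and 60.9% of 16938 genes in 9S/T-A, and 5 of the 8 tested members in WT and 4 in 9S/T-A, so that the members' share was close to that of all genes. In WT, 2 members were higher in colon (33.1% of all genes) and 3 lower (30.4%). In 9S/T-A, 1 was higher (32.9% of all genes) and 3 lower (28.0%). SI and colon libraries of the same number deviated from their group means together, so the replicate number was also fitted as a block. With that block 5 members were called in WT (69.0% of all genes) and 5 in 9S/T-A (68.7% of all genes). The groups did not overlap for 4 of 8 members in WT, against 43.5% of all genes, and for 2 of 8 in 9S/T-A, against 41.1%.

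Notch2 was lower in colon in both genotypes. In WT it was at 6.32, 8.41 and 9.57 CPM in SI and 2.16, 3.43 and 4.59 CPM in colon, and in 9S/T-A at 4.95, 6.61 and 8.44 CPM in SI and 2.75, 3.40 and 3.64 CPM in colon. In each genotype every SI library was above every colon library. The log2 fold change was -1.32 ± 0.176 in WT (adjusted p = 8.58e-06) and -1.07 ± 0.138 in 9S/T-A (adjusted p = 7.71e-06, edgeR), or 2.49-fold and 2.10-fold higher in SI. With library totals the values were -0.61 in WT and -0.27 in 9S/T-A, the latter with adjusted p = 0.0912, and relative to the median shift of all genes they were -1.35 and -1.11.

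Notch1 did not follow Notch2. Its tissue difference was 0.12 ± 0.0894 in WT (interval -0.07 to 0.31, adjusted p = 0.241) and 0.37 ± 0.172 in 9S/T-A (interval 0.01 to 0.74, adjusted p = 0.0725, edgeR). In 9S/T-A it passed with the replicate block, at 0.38 ± 0.111 with adjusted p = 0.00949 (edgeR). Of 12 fits that left out 1 library it passed in 2, with adjusted p up to 0.168 over the 12 (edgeR). These 2 were without the 9S/T-A colon library numbered 3 (0.46, adjusted p = 0.0267) and without the 9S/T-A SI library numbered 2 (0.53, adjusted p = 0.00675). The Notch1 difference in 9S/T-A also passed in 1 fit of all 24 libraries (0.40, adjusted p = 0.0168) and with sex as a covariate (0.37, adjusted p = 0.0387, edgeR). The ratio of both receptors within a library does not depend on any scaling between libraries. Notch1 over Notch2, per kb, was 1.60, 1.87 and 2.46 for SI of WT mice, 1.55, 1.76 and 2.35 for SI of 9S/T-A mice, 3.77, 5.49 and 8.18 in WT colon and 4.08, 4.96 and 6.62 in 9S/T-A colon. All 12 colon libraries thus had a higher ratio than all 12 SI libraries, while the genotypes overlapped in each tissue.

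Notch4, the remaining receptor, was in the list of receptor processing and not among the members. It rose in colon by 1.40 ± 0.105 in WT (adjusted p = 1.43e-08, edgeR), from 5.05, 5.48 and 6.34 CPM in SI to 12.6, 14.9 and 18.9 CPM in colon. In 9S/T-A it rose by 1.56 ± 0.132 (adjusted p = 7.75e-08, edgeR). Notch3 had differences of 0.21 ± 0.277 in WT and 0.83 ± 0.390 in 9S/T-A (adjusted p = 0.521 and 0.0793, edgeR). Of 12 fits that left out 1 library, the Notch3 difference in 9S/T-A passed in 1, with adjusted p up to 0.244 over the 12 (edgeR). That fit left out the 9S/T-A SI library numbered 6, with a difference of 1.05 and adjusted p = 0.0418 (edgeR). In 1 fit of all 24 libraries the Notch3 difference in 9S/T-A was 0.86 with adjusted p = 0.0356 (edgeR). With the replicate block it was 0.71 ± 0.425 and did not pass (adjusted p = 0.157, edgeR).

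Mfng, which encodes a Fringe enzyme of the same family as LFNG, had the largest tissue difference of the tested members. In WT it was at 0.564, 0.95 and 1.51 CPM in SI and 0.0436, 0.229 and 0.345 CPM in colon, without overlap. In 9S/T-A it was at 0.524, 1.18 and 1.57 CPM in SI and 0.208, 0.293 and 0.528 CPM in colon, and the highest colon library just exceeded the lowest SI library. The log2 fold change was -2.32 ± 0.410 in WT (adjusted p = 0.000139) and -1.78 ± 0.324 in 9S/T-A (adjusted p = 0.000206, edgeR). These levels rest on 20 to 72 counts per library in SI and 3 to 43 in colon.

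Summed markers of several cell types were lower in colon, like Mfng and Notch2, among them those of leukocytes, which the EpCAM+tdTom+ gate should remove. Of the 7 leukocyte markers, 5 were tested and 4 were lower in colon in each genotype (30.4% of all genes in WT and 28.0% in 9S/T-A). In 9S/T-A 1 was higher (32.9% of all genes). The summed level of the 6 markers other than Lyz2, which is close in sequence to the Paneth cell gene Lyz1, was 11.4 to 20 CPM in WT SI, 7.73 to 18.1 in 9S/T-A SI, 5.56 to 7.58 in WT colon and 4.26 to 6.35 in 9S/T-A colon. With Lyz2 it was 1890 to 2850, 1540 to 2400, 7.44 to 11.4 and 8.61 to 10.8 CPM in the same order. The T cell gene Cd3e was at 1.85 to 6.57 CPM in SI and 0.0163 to 0.297 CPM in colon, whereas the B cell gene Cd79a was at most 0.232 CPM in any library. The summed level of 6 Paneth cell markers was 40200 to 79600 CPM across SI libraries and 178 to 1440 CPM across colon libraries. In WT the markers of tuft cells summed to 48.9 to 101 CPM in SI and 12.7 to 36.6 CPM in colon, and those of enteroendocrine cells to 264 to 546 and 56.9 to 110 CPM. Markers of cycling cells summed to 278 to 374 and 130 to 202 CPM and those of absorptive cells to 2290 to 3940 and 327 to 659 CPM in the same groups. The sum of the 6 stem cell markers was higher in colon, at 419 to 531 against 688 to 923 CPM, mostly through Slc12a2 (means 328 and 725 CPM). Of these 6 genes, 1 was called higher and 3 lower in WT colon (33.1% and 30.4% of all genes). In 9S/T-A 1 was called higher and 2 lower (32.9% and 28.0% of all genes). Lgr5, for example, had means of 21.4 CPM in WT SI and 10.9 CPM in WT colon. In 9S/T-A the SI and colon sums were 18.6 to 82.7 and 9.04 to 27.8 CPM for tuft cells, with overlap, 310 to 621 and 50.5 to 102 CPM for enteroendocrine cells, and 3380 to 4290 and 392 to 709 CPM for absorptive cells. Cycling cell markers summed to 212 to 331 and 141 to 247 CPM there, also with overlap, and stem cell markers to 364 to 552 and 612 to 900 CPM. Markers of mural cells summed higher in colon, at 3.94 to 6.27 against 10.2 to 15.6 CPM in WT and 4.12 to 4.95 against 8.08 to 14.9 CPM in 9S/T-A. This came mostly from Pdgfrb (means 2.25 CPM in WT SI and 10.7 CPM in WT colon). Of the mural markers, 1 was called higher and 1 lower of 3 tested in WT, and 2 higher and 1 lower of 4 in 9S/T-A, beside the same shares of all genes. The part of any of these cells in the tissue differences was not tested. In sorted bulk RNA, fewer cells of a type and less RNA per cell cannot be told apart.

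Lfng was higher in colon than in SI in WT. The levels given above (19.1 to 24 CPM in SI, 25.1 to 30.6 CPM in colon) did not overlap, and the log2 fold change was 0.30 ± 0.0727 (adjusted p = 0.00176, edgeR), 1.24-fold. In 9S/T-A, with 18.7 to 23.3 CPM in SI and 19.9 to 24.8 CPM in colon, the groups overlapped and the difference was 0.10 ± 0.0823 (interval -0.08 to 0.28, adjusted p = 0.316, edgeR). The difference between these 2 tissue effects was -0.21 ± 0.103 (interval -0.42 to 0.001, adjusted p = 0.519, edgeR). Within libraries, Lfng over Mfng per kb was 18.0, 24.8 and 47.2 in SI of WT mice and 14.3, 21.4 and 44.6 in SI of 9S/T-A mice. In colon it was 92.8, 132 and 701 in WT and 53.3, 89.0 and 133 in 9S/T-A, above every SI library.

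Hes6 was higher in colon in both genotypes. In WT it was at 65.0, 75.2 and 81.0 CPM in SI and 100, 106 and 117 CPM in colon, and in 9S/T-A at 67.1, 74.3 and 85.0 CPM in SI and 88.5, 100 and 116 CPM in colon. Neither pair of groups overlapped. The log2 fold change was 0.50 ± 0.0678 in WT (adjusted p = 1.04e-05) and 0.38 ± 0.082 in 9S/T-A (adjusted p = 0.000949, edgeR), 1.41-fold and 1.30-fold. Hes1 differed by 0.06 ± 0.0807 in WT (adjusted p = 0.539) and by -0.22 ± 0.0918 in 9S/T-A (adjusted p = 0.047, edgeR). The Hes1 call in 9S/T-A held in 2 of the 12 fits that left out 1 library, those without the colon libraries numbered 2 and 7, with adjusted p from 0.00978 to 0.129 over the 12, and it was lost with no filter on low counts (-0.19, adjusted p = 0.116) and in 1 fit of all 24 libraries (-0.20, adjusted p = 0.0546). With library totals its sign reversed to 0.59, against a median shift of all genes of 0.846. Hes6 over Hes1 per kb, which no scaling changes, was 1.66, 2.07 and 2.45 in WT SI and 2.36, 2.75 and 3.23 in WT colon. It was 1.74, 2.05 and 2.50 in 9S/T-A SI and 2.51, 3.14 and 3.94 in 9S/T-A colon, higher in colon with slight overlap in WT and none in 9S/T-A.

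Nrarp was at 11.2, 13.3 and 19.2 CPM in WT SI and 10.3, 11.0 and 14.1 CPM in WT colon, with overlap. Its log2 fold change of colon over SI was -0.34 ± 0.122 (adjusted p = 0.025, edgeR), but the sign reversed to 0.36 with library totals, against a median shift of 0.74. The call was also lost in 4 of 12 fits without 1 library: without the WT SI libraries numbered 4 (-0.20, adjusted p = 0.0849) or 5 (-0.30, adjusted p = 0.0562) and without the WT colon libraries numbered 4 (-0.31, adjusted p = 0.0552) or 5 (-0.31, adjusted p = 0.0535). It was lost as well with no filter on low counts (-0.30, adjusted p = 0.053, edgeR). In 9S/T-A the difference was -0.12 ± 0.135 with an interval from -0.41 to 0.16.

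Hes5 and Hey1 were near the limit of detection in all 4 groups. Hes5, a Notch target prominent in the nervous system and the gene with 2 GTGGGAA matches above, had 0 to 15 counts and at most 0.205 CPM in any library. Hey1, a target prominent in the vasculature, had 0 to 7 counts and at most 0.14 CPM. Without the filter on low counts neither passed in any comparison, and the smallest adjusted p was 0.0599, for Hes5 between colon and SI in WT (edgeR).

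**Figure D4:**
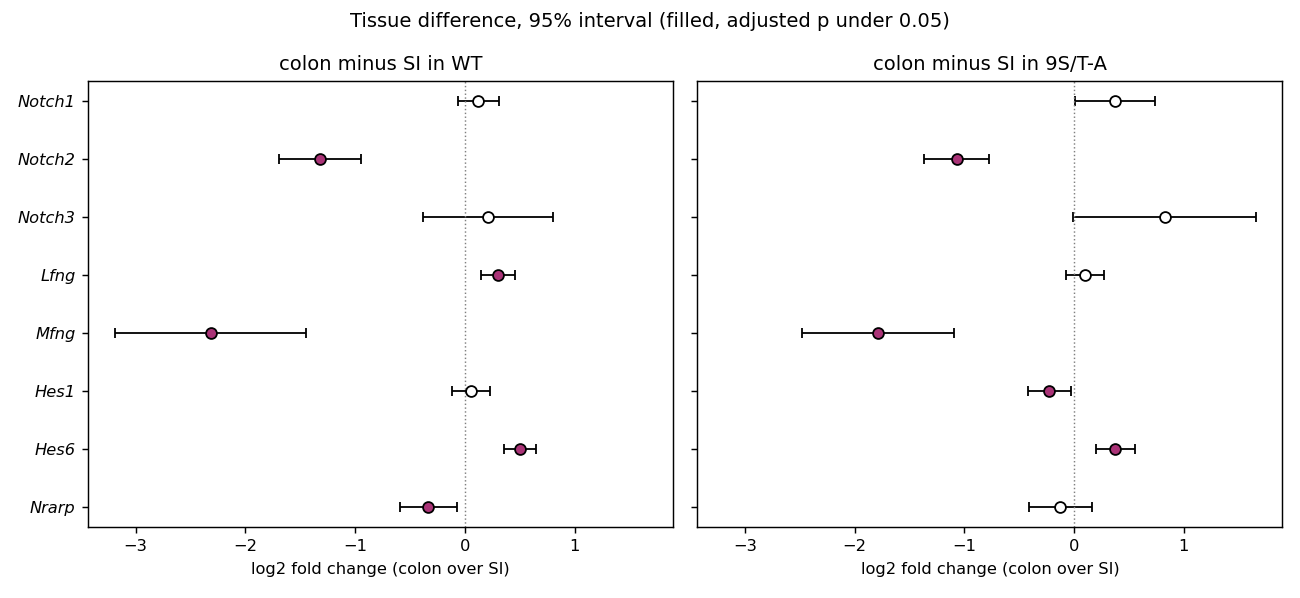
Log2 fold change of colon over SI (horizontal axis) for the 8 tested members in WT and 9S/T-A, with points at the estimate and bars for the 95% interval. Tissue was the only term of these fits. Filled points passed an adjusted p of 0.05: Notch2, Mfng and Hes6 in both genotypes, Lfng and Nrarp in WT, and Hes1 in 9S/T-A. With the replicate block, which is not drawn, Notch1 in 9S/T-A passed as well.

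Whether the genotype difference depended on tissue was tested over all 24 libraries, where edgeR called 0.412% of 17953 genes. Of the 8 members 0 were called, 1 (Hes1) had an unadjusted p under 0.05, and DESeq2 called 0. The interaction of Hes1 was -0.29 ± 0.123 (interval -0.54 to -0.03, adjusted p = 0.418, edgeR). That of Notch1 was 0.25 ± 0.202 (interval -0.17 to 0.66). Of the 52 other pathway genes tested, 0 were called, 7 had an unadjusted p under 0.05, and DESeq2 called 0. With the replicate number as a block, 1 of the 52 was called, with an interaction below 0. That block raised the calls over all genes from 74 to 342.

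The rest of the pathway was also compared between tissues, where most genes of any kind were called. Of 52 genes tested in WT, 12 were higher in colon (33.1% of all genes) and 27 lower (30.4% of all genes), with 13 not called. In 9S/T-A 12 of 51 were higher (32.9% of all genes) and 28 lower (28.0% of all genes). The counts of single lists that follow stand against the same shares of all genes. This split depended on scaling: with library totals 30 were higher and 8 lower in WT, and 33 higher and 6 lower in 9S/T-A. Among the ligands, 3 of 5 in WT and 4 of 5 in 9S/T-A were lower in colon and 0 higher. Dll4, a ligand presented by secretory cells, differed by -1.36 ± 0.0941 in WT and -1.79 ± 0.0957 in 9S/T-A, and Dll1 by -1.57 ± 0.117 and -1.64 ± 0.146. With library totals both stayed below 0, at -0.66 and -0.97 for Dll4 and -0.86 and -0.82 for Dll1. Dll3 differed by -2.45 ± 0.271 in WT and -2.06 ± 0.186 in 9S/T-A.

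Of the 11 genes of Notch4 and receptor processing, 3 were higher and 4 lower in colon in each genotype, beside the 63.6% of all genes called in either direction in WT and 60.9% in 9S/T-A. Besides Notch4, those with the smallest adjusted p were Aph1b and Aph1c, subunits of gamma-secretase, the protease that frees the intracellular domain. Aph1b was higher by 2.05 ± 0.117 in WT and Aph1c by 1.99 ± 0.218, and as close paralogs they may share reads. Of the glycosylation and trafficking genes, 9 were lower and 3 higher in each genotype (of 14 tested in WT and 13 in 9S/T-A), with 30.4% of all genes lower and 33.1% higher in WT. Dtx1, which encodes a ubiquitin ligase of the Deltex family, was at 1.06 to 2.84 CPM in WT SI and at most 0.116 CPM in WT colon (log2 fold change -5.52 ± 0.462). Numb, an inhibitor of Notch, differed by -0.68 ± 0.0744 in WT and Itch, a ubiquitin ligase, by -0.57 ± 0.0799. With library totals these became 0.03 and 0.15, against a median shift of all genes of 0.74.

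Of the 16 genes of the nuclear complex, 9 were lower and 4 higher in WT (30.4% and 33.1% of all genes), and 8 lower and 4 higher in 9S/T-A (28.0% and 32.9% of all genes). The corepressor gene Tle1 differed by -1.31 ± 0.0748 in WT and -1.24 ± 0.0851 in 9S/T-A, and the histone deacetylase gene Hdac1 by 0.77 ± 0.0646 and 0.91 ± 0.073. Of the other targets, Olfm4, a stem cell gene that depends on Notch in SI, was at 627, 756 and 959 CPM in WT SI and 0.448, 0.699 and 1.69 CPM in WT colon. Heyl was at 0.619, 0.913 and 1.34 CPM in WT SI and at most 0.173 CPM in WT colon. Ccnd1, which encodes cyclin D1, was higher in colon by 0.50 ± 0.0974 in WT and 1.11 ± 0.163 in 9S/T-A.

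**Figure D5:**
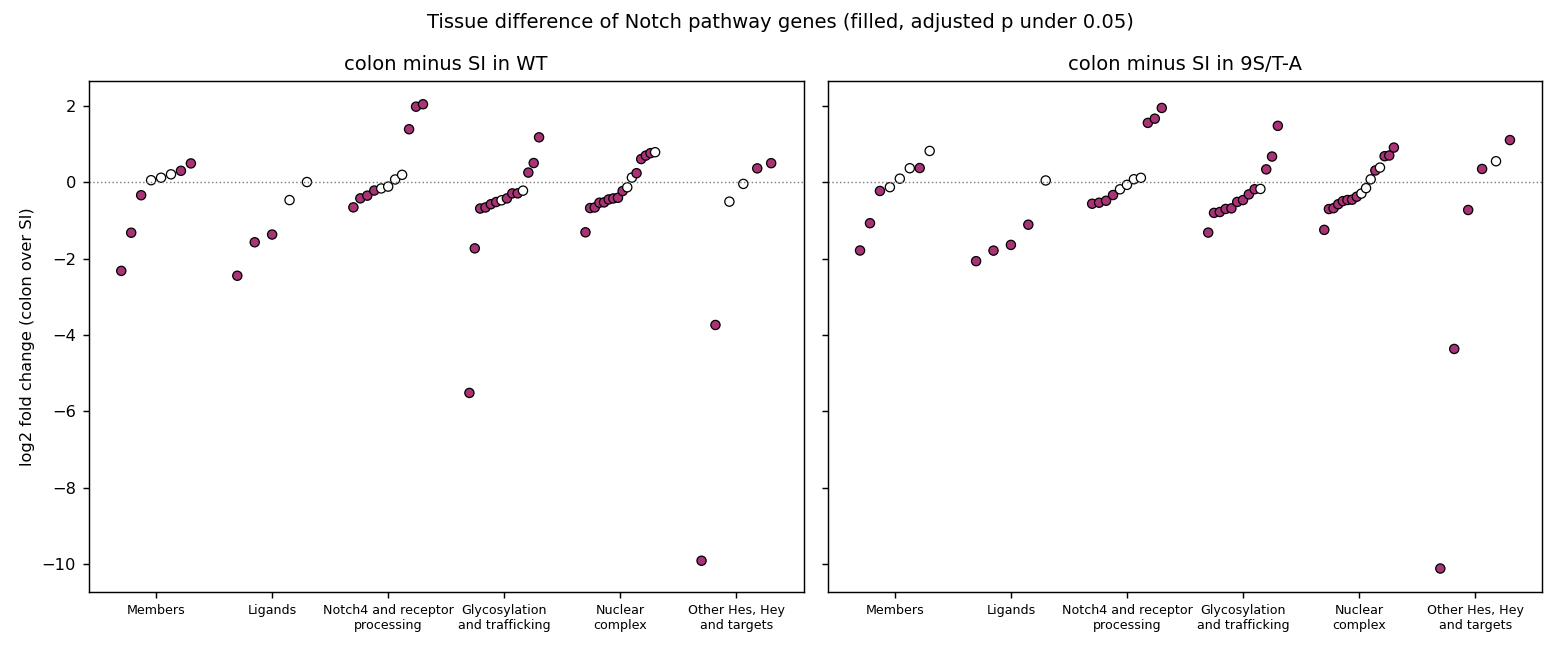
Log2 fold change of colon over SI (vertical axis) for every tested gene of the members and the 5 other pathway lists in WT and 9S/T-A, 1 point per gene, sorted within each list. Filled points passed an adjusted p of 0.05. The most extreme point in each panel is Olfm4, at -9.92 in WT and -10.1 in 9S/T-A.

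Genes with the most similar pattern over the 24 libraries were sought for members whose group means spanned at least 1 on the log2 scale, which were Notch2, Mfng and Hes5. Likeness was the root mean square difference of log2 CPM, each gene centered on its own mean, among 10749 protein coding genes. The nearest genes to Notch2 included Hipk2 (0.24) and Pbx3 (0.25). Those of Mfng were Gch1 (0.53), Mthfd2 (0.59) and Glipr2 (0.61). For Hes5 they included Serac1 (0.60) and Fam173b (0.65), where the counts of Hes5 were too few for its pattern to be read.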

How the data were processed

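RNA of EpCAM+tdTom+ cells was sequenced in 24 libraries, with 6 in each of 4 groups taken from the labels. The authors aligned stranded single-end reads to GRCm38 (GRCm38.p3 per the submitters' processing notes) with TopHat2 2.1.1. They deposited raw counts per gene made with featureCounts (Subread 1.5.2), which per the file headers counted primary alignments over exons by strand, without normalization. GENCODE M21 named 44585 of the 45513 genes. The upstream stretches came from RefSeq on GRCm38.p6, and bases inside the gene model of the count files were left out of the printed ones. Total counts ranged from 36.0 M to 65.8 M, and 0 of 60 same-group pairs of libraries were identical.

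Each comparison was fitted on the counts of its own libraries in R 4.3.3 by the two-sided quasi-likelihood F test of edgeR 4.0.16, after TMM scaling and filterByExpr within the groups compared (Benjamini-Hochberg adjustment over all genes tested, threshold 0.05), and the interaction of genotype and tissue on all 24 libraries. DESeq2 1.42.0 was an alternative. Standard errors came from the F statistic. Log2 fold changes are from the fit of each comparison, and CPM is scaled over all 24 libraries. Fits were tested on simulated data. The labels do not say which libraries came from separate mice, and the series' design text speaks of 6 mice in all, so how many animals stand behind the 24 libraries is not settled. With n = 6 libraries per group, errors and p-values measure the spread between these libraries, which may be partly technical.

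SI and colon libraries of 1 genotype share replicate numbers, and the design text describes collection of both tissues from each mouse. Their deviations from the group means correlated at 0.168 or more in each of 6 pairs in WT and at 0.159 or more in each of 6 in 9S/T-A, so the numbers were taken to pair the tissues, and the replicate number was fitted as a block in an alternative.

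All members are named. From each other list, the 3 called genes with the smallest adjusted p in each comparison were named, together with the levels of 5 ligands and the 3 genes nearest in pattern. Some genes that met these rules are not reported here. Alternatives were RLE size factors, library totals, no filter, a mean of at least 10 counts, DESeq2, sex as a covariate, the replicate block, 1 fit of all 24 libraries, and leaving out each library. The members, lists and tests were chosen with earlier results of these data known.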

Additional observations from a re-analysis of the deposited data

Results flagged for a closer look

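In each of the 4 groups, the libraries of the 10 members were examined for a single value far from the others by Dixon's criterion, which chance meets in about 1 of 20 groups. Of 40 sets of 6 libraries, 1 met it: Nrarp in WT colon, where the library numbered 3 was at 14.1 CPM and the other 5 lay between 10.3 and 11.2 CPM.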

How the results depend on the processing

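Over 968 fold changes of members refitted under alternatives, 900 kept direction and side of the threshold, 19 lost a call, 17 gained one and 32 changed sign, of which 29 did not pass the test. No member changed under RLE size factors, DESeq2 or a mean of at least 10 counts. With library totals, which by construction shift the median of all genes, 8 members were called between tissues in WT and 7 in 9S/T-A. Nrarp then stood at 0.365 (WT) and 0.681 (9S/T-A) and Hes1 at 0.593 (9S/T-A), and for genotype in SI Hes1 stood at -0.103, Hes6 at -0.105 and Mfng at -0.039. Notch2 by genotype in colon was 0.000 with sex as a covariate.

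Between genotypes, same-numbered libraries did not deviate together throughout (correlations from -0.095 to 0.696 in SI and 0.02 to 0.853 in colon), and 2 of 6 in SI and 4 of 6 in colon correlated best with their own number. With the replicate block 1 member was called in colon, Lfng, at -0.26 with adjusted p = 0.0447 (edgeR), and Notch2 there was 0.020. The block raised the calls over all genes from 315 to 477 in SI, from 54 to 385 in colon and from 74 to 342 for the interaction, changed Notch1 between tissues in 9S/T-A as given in the report, and changed no other member's call. It raised the calls among the 52 other pathway genes in SI from 2 to 4, and among the 52 tested for the interaction from 0 to 1.

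Calls over all genes also moved with DESeq2 (780 in SI, 247 in colon, 258 for the interaction), 1 fit of 24 libraries (520 and 103 by genotype in SI and colon), no gene filter (90 in colon) and sex as a covariate (89 in colon). Both further alternatives were chosen after seeing the data. Without libraries numbered 2, 1 member was called by genotype in SI (Notch1), all genes called were 779 in SI and 30 in colon, Notch2 in colon was 0.062, and 1 other pathway gene (Dtx4) fell by genotype in SI beside the 2 that rose. Without those numbered 7, the interaction gave 43 calls, Hes6 by genotype in SI was -0.028 and Notch1 in colon 0.003.

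Leaving out 1 library at a time, 0 to 1 members were called by genotype in SI, and all genes called ranged from 188 (without WT SI number 3) to 550 (without 9S/T-A SI number 2) in SI, from 30 (without WT colon number 5) to 72 in colon and from 50 to 112 for the interaction (without 9S/T-A SI numbers 3 and 2). Fold changes by genotype that crossed 0 ranged from -0.027 to 0.061 for Hes1, -0.031 to 0.043 for Hes6 and -0.051 to 0.230 for Mfng in SI, and in colon from -0.120 to 0.055 for Notch1, -0.116 to 0.091 for Notch2 and -0.064 to 0.392 for Notch3. Counts of Hes5, Hey1, Mfng and Notch3 limit what can be said of these genes at this depth.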
